A study of Homo sapiens with 6 samples.

Results

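The replication-dependent histone genes were followed in K562 cells, a chronic myeloid leukemia cell line with erythroid features, after transfection of an empty vector, MXD3 or the STIM1::MXD3 fusion gene. The genes were taken from the deposited count files as every NCBI Gene ID whose current protein-coding symbol is H1-1 to H1-6, or H2AC, H2BC, H3C or H4C followed by a number. Pseudogenes were left out. This gave 69 genes among 25702 identifiers, of which 6 encode the linker histone H1, 17 encode H2A, 18 encode H2B, 13 encode H3 and 15 encode H4. Each of the 3 plasmid groups had 2 libraries, labelled replicate 1 and replicate 2. All cells were K562 with no drug treatment, carried a pCMV-HA plasmid introduced by nucleofection, and were grouped as the empty vector control (EV), wild-type MXD3 or STIM1::MXD3. Expression was driven by the CMV promoter of the plasmid on top of the cells' own genes and no sorting for transfected cells is described for these libraries. The libraries of a group are independent transfections by the study's account. The comparison asks how the fusion and its wild-type partner act on transcription in a leukemic cell, since MXD3 is a bHLH repressor of the MYC network and the fusion loses the amino-terminal repression region.

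Replication-dependent histone genes supply the core and linker histones that package newly copied DNA, and their mRNAs rise in S phase and are destroyed when replication ends. They are the only large class of metazoan mRNAs that normally lack a poly A tail. In place of it they end just after a conserved stem-loop, which is bound by SLBP and cut with the help of the U7 snRNP, while some genes can also give longer, polyadenylated transcripts. Because the libraries were enriched for poly A RNA, the counts below cover the polyadenylated forms and whatever other histone RNA was carried along, and not the bulk of histone mRNA.

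The stem-loop is shown first because a transcript cut after it has no poly A tail. In GRCh37 with GENCODE gene models, 64 of the 69 genes could be placed, and a stem of 6 base pairs that starts with GG and ends with CC around a loop of 4 bases was found within 100 bases after the stop codon in 61 of them. The same search found one in 24 of 19573 other protein-coding genes (0.123%). The search also asked for a T-rich loop with C or T before it and A or G after it, and it allowed G-T pairs. There were 7 distinct forms, and the 4 found in more than 1 gene are printed in capitals, 5′ to 3′, each with the genes that bear on the results.
38 genes, among them H1-2, H2AC25, H2BC21, H2AC6, H2AC8 and H3C10: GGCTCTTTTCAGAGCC
8 genes, among them H2BC12, H2BC5, H2BC4 and H2BC11: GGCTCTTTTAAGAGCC
8 H4 genes, among them H4C8 and H4C11: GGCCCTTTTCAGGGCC
4 H4 genes, H4C9, H4C12, H4C14 and H4C15: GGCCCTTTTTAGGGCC
H3C6, H2BC10 and H4C13 had no match, and H2AC18, H4C2, H2BC7, H2BC8 and H4C6 were not placed.

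The 64 placed genes lay in a few clusters. On chromosome 6 there were 51 of them between 25723625 and 27861669, on chromosome 1 there were 10 between 149754245 and 149859515 and 2 between 228622478 and 228650805, and H4C16 lay alone on chromosome 12. In 56 of the 64 every annotated coding transcript had 1 exon. Promoter sequences (RefSeq, GRCh38.p14, the 250 bases before the start) were at hand for 64 of the 69 genes. The octamer ATTTGCAT, searched on both strands, was found in 26 of these 64 against 1.66% of 27305 promoters, with 14 of 18 H2B and 11 of 16 H2A genes and no H1 or H4 gene. The remaining match, in the H3C4 entry, is that of H2AC7, since both entries give the same window. Windows of 23 genes overlapped that of another histone gene, and the 26 windows with the octamer formed 17 separate stretches. CCAAT was found in 54 of 64 (33.04% of all promoters) and TATAAA in 42 of 64 (11.13%). The E-box CACGTG, the element that MYC and MXD proteins bind as partners of MAX, was found in 0 of 64, against 6.49% of all promoters. A match or its absence describes the letters in this window and says nothing of binding. The promoters of the most abundant genes are printed in lower case, with any match to the 4 motifs on either strand in capitals. No level or comparison below was set against the motifs.
H1-2, chr6:26056471-26056720, minus strand: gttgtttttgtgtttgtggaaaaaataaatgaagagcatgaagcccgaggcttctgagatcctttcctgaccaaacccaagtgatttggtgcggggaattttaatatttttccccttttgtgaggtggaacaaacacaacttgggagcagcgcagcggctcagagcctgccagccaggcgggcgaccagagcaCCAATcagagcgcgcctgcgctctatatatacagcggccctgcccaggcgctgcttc
H2BC12, chr6:27146859-27147108, minus strand: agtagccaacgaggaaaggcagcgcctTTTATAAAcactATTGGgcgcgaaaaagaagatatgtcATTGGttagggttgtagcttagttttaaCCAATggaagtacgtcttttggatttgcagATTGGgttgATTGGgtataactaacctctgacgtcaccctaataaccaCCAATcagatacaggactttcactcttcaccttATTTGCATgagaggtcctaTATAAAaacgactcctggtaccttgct
H2AC25, chr1:228457874-228458123, minus strand: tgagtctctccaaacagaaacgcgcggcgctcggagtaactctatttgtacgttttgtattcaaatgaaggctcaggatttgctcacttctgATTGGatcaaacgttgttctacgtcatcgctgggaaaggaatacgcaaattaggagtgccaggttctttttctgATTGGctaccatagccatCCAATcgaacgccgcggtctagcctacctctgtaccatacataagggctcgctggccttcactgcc
The H2BC12 window is almost the whole stretch between H2BC12 and H2AC12, which are read in opposite directions, and the H2AC25 window covers the stretch between H2AC25 and H2BC26 and runs on into the start of H2BC26.

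Sequencing was deep and even, with 53048343 to 63835779 counts per library, of which the histone genes held 0.1825 to 0.2128%. MXD3 was at 9.33 and 11.7 CPM in the EV libraries, 2520 and 2160 in the MXD3 libraries and 1980 and 1850 in the STIM1::MXD3 libraries, and STIM1 was at 471 and 453 CPM in the STIM1::MXD3 libraries against 159 to 205 in the others, so the plasmids matched the labels. CPM here is the usual count per 1000000, scaled by library size and edgeR's TMM factors. The erythroid markers of K562 summed to 7510 to 10500 CPM, while 7 lymphoid markers summed to 15.1 to 22.3 CPM with MS4A1 and CD8A at 0, and 7 mature myeloid markers to 23.3 to 28.4 CPM. Mitochondrial genes took 1.45 to 3.73% of the counts. Values were compared over libraries within the poly A fraction only, and in bulk RNA fewer cells in S phase and less histone RNA per cell cannot be told apart.

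Histone RNA in these libraries came mainly from the H1 and H2B families. Summed over all 69 genes, the level was 2207 and 2043 CPM in EV, 2072 and 1775 CPM in MXD3 and 2214 and 1829 CPM in STIM1::MXD3. H2B genes gave 43.2% of it, H1 38.7%, H2A 13.8%, H3 2.68% and H4 1.67%. The means and spreads of the sum were 2125 ± 116 CPM (SD, n = 2) in EV, 1924 ± 211 in MXD3 and 2022 ± 272 in STIM1::MXD3, and the ranges of the groups overlapped. In the EV, MXD3 and STIM1::MXD3 groups the H1 sum was 870.3 ± 64.9, 714 ± 101 and 762 ± 168 CPM, the H2A sum 294 ± 4.40, 253 ± 10.3 and 291 ± 3.59 CPM, and the H2B sum 873 ± 39.2, 871 ± 94.0 and 878 ± 104 CPM. The H2A sum was thus lower in both MXD3 libraries than in the other 4, by a ratio of means of 0.862 to EV. H2AC25 fell from a mean of 149.6 CPM in EV to 113.7 in MXD3, and H2AC8 from 27.6 to 20.02. Together these genes account for the drop in the sum. Of the 12 H2A genes tested below, 5 were higher in MXD3 than in EV and 7 lower. The H2B sum had near equal means in the 3 groups. H3 genes summed to 53.9 ± 8.91, 54.0 ± 9.71 and 54.6 ± 8.52 CPM and H4 genes to 34.0 ± 1.60, 31.2 ± 4.53 and 36.4 ± 11.9 CPM.

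**Figure D1:**
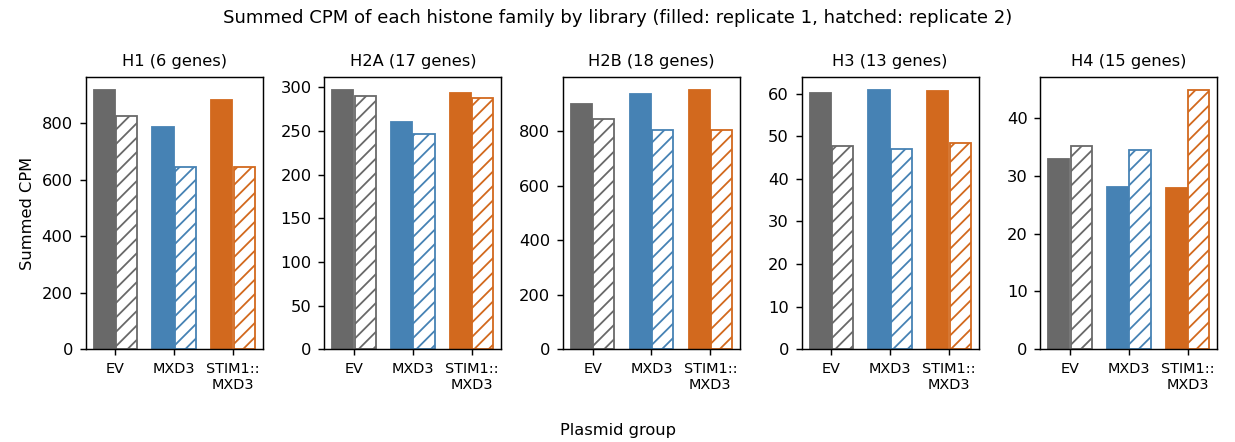
Summed CPM (vertical axes, from 0) of the H1, H2A, H2B, H3 and H4 genes in each library, by plasmid group (EV, MXD3, STIM1::MXD3), with replicate 1 filled and replicate 2 hatched. In every group replicate 2 is lower for H1, H2A, H2B and H3 and higher for H4, and both MXD3 libraries are the lowest for H2A, at 260.4 and 246 CPM.

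The 2 genes H1-2 and H2BC12 dominated, and together they made up 66.0 to 69.9% of the histone CPM of a library. H1-2, a linker histone, was measured at 912 and 821.5 CPM in EV, 782 and 639.6 in MXD3 and 877 and 639 in STIM1::MXD3. H2BC12, a core H2B, was at 624 and 585 CPM in EV, 659 and 577 in MXD3 and 670.0 and 567 in STIM1::MXD3. Both MXD3 libraries were below both EV libraries for H1-2 while STIM1::MXD3 overlapped each of the other groups, and for H2BC12 all groups overlapped. Replicate 2 was the lower library of each group for both genes.

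The H2A genes spanned a wide range of levels. H2AC25 was at 159 and 141 CPM in EV, 123 and 104 in MXD3 and 152 and 127 in STIM1::MXD3. H2AC6 was at 75.5 and 85.4 CPM in EV, 79.2 and 83.0 in MXD3 and 80.6 and 87.5 in STIM1::MXD3. H2AC8 was at 28.2 and 27.0 CPM in EV, 22.1 and 18.0 in MXD3 and 27.2 and 24.2 in STIM1::MXD3. Both MXD3 libraries were thus below all 4 other libraries for H2AC25 and H2AC8, whereas the groups overlapped for H2AC6. H2AC13 was at 13.5 and 16.2 CPM in EV, 15.8 and 16.6 in MXD3 and 12.7 and 21.7 in STIM1::MXD3. H2AC11 was at 10.8 and 11.1 CPM in EV, 11.8 and 14.6 in MXD3 and 10.5 and 16.6 in STIM1::MXD3, so that for both of these genes the STIM1::MXD3 libraries held the lowest and the highest value of all 6.

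Among the H2B genes, H2BC21 was at 104 and 94.0 CPM in EV, 113 and 83.9 in MXD3 and 105 and 88.7 in STIM1::MXD3. H2BC5 was at 59.5 and 57.4 CPM in EV, 56.5 and 51.6 in MXD3 and 67.6 and 54.0 in STIM1::MXD3, and H2BC11 at 35.2 and 34.2, 35.3 and 27.7, and 39.3 and 28.3 CPM in the same order. The groups overlapped for H2BC21 and H2BC11, and for H2BC5 both MXD3 libraries were just below both EV libraries. H2BC4, H2BC15, H2BC8, H2BC17 and H2BC18 followed at means of 16, 14.9, 14.1, 10.5 and 5.30 CPM over the 6 libraries. H2BC4 was below both EV libraries in all 4 of the others, at 18.2 and 17.2 CPM in EV, 16.5 and 13.6 in MXD3 and 16.2 and 14.5 in STIM1::MXD3.

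The H3 and H4 genes were scarce in these poly A libraries. H3C10 was at 39.7 and 30.1 CPM in EV, 41.8 and 32.5 in MXD3 and 40.3 and 31.7 in STIM1::MXD3, and H3C4 at 12.8 and 9.88, 12.6 and 7.90, and 13.4 and 9.21 CPM. In both genes the replicate 1 libraries were the 3 highest and the replicate 2 libraries the 3 lowest. H4C8 was at 19.5 and 20.9 CPM in EV, 17.5 and 19.3 in MXD3 and 16.3 and 26.7 in STIM1::MXD3, and H4C9 at 4.34 and 5.05, 4.05 and 5.80, and 3.79 and 7.78 CPM. No other H3 or H4 gene reached 5 CPM on average.

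The 19 genes named above with a mean of at least 5 CPM carried 98.0% of the histone CPM. A further 29 passed edgeR's filter on low counts, at means of 0.129 to 4.73 CPM, and 21 did not pass it, of which 11 had some counts. The remaining 10 were at 0 counts in all 6 libraries, namely H1-1, H2AC1, H2BC1, H2BC10, H3C8, H3C11, H3C14, H4C6, H4C13 and H4C16, which at this depth allows up to 0.0470 to 0.0566 CPM a library (3 counts, counting error only). H2AC1 and H2BC1 are known as testis histone genes. The set was not sorted by tissue, so their zeros do not speak for testis histone genes as a class. Near-identical copies limit some values, since the treatment of reads that map to several places is not given in the sources used here. In 100-base windows of transcript sequence, H3C15, H4C14 and H4C15 shared 100% of their windows with another histone gene of the set, H3C14 99.1%, H4C12 91.3%, H4C11 90.7%, H2AC14 61.8% and H2AC13 58.8%, so their counts are uncertain. Of the 19 abundant genes only H2AC13, H2BC18 (14.0%), H2BC21 (2.6%) and H2BC15 (0.1%) shared any window, with H2BC8 not searched because it was not placed. Some genes also overlap one another: H4C3 and H1-6 overlap the long form of H2BC4, and H3C12 overlaps H2AC17.

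**Figure D2:**
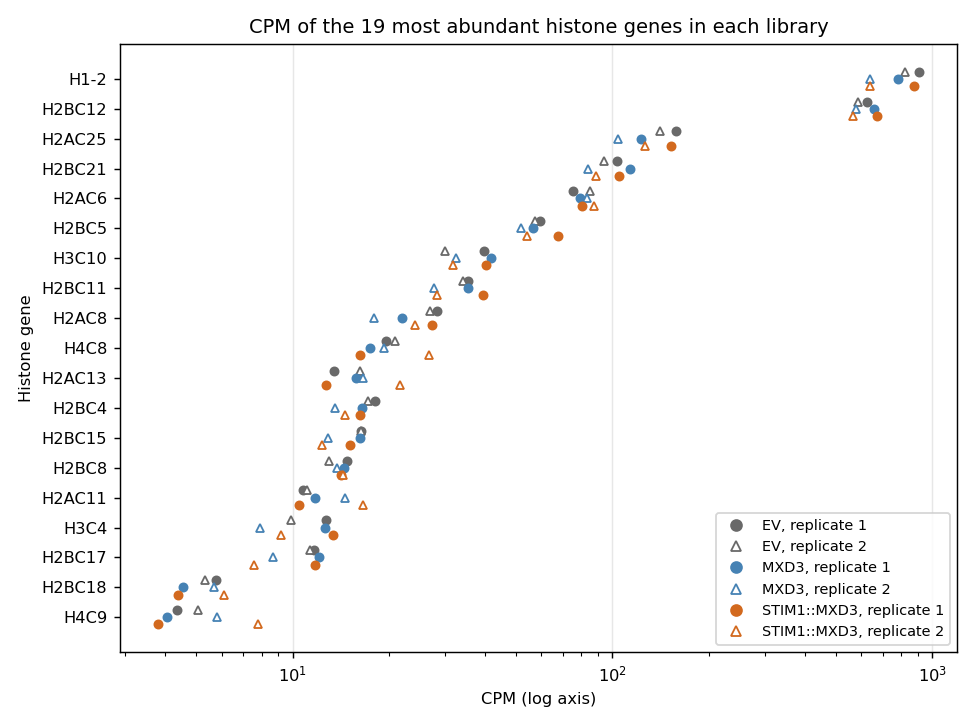
CPM (horizontal log axis) of the 19 histone genes with a mean of at least 5 CPM, 1 point per library, colored by plasmid group, with filled circles for replicate 1 and open triangles for replicate 2. H1-2 and H2BC12 stand above 560 CPM in every library, H2AC25 follows between 104 and 159 CPM, and the points of the 3 groups are intermixed for most genes.

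Levels were next set beside the annotated 3′ ends. A coding transcript ending more than 50 bases past the stem-loop was annotated for 11 of the 61 genes with a stem-loop: H2AC6, H2AC25, H2BC4, H2BC5, H2BC6, H2BC11, H2BC15, H2BC18, H2BC21, H2BC26 and H3C10. For 9 of the 11 such a transcript carried a poly A signal (AATAAA or ATTAAA) in its last 40 bases. The 11 genes had a median of 88.2 CPM per kb of coding length, and the 50 genes with no such transcript a median of 0.959 CPM per kb. Of the 11, 9 were at 5 CPM or more and all had counts, against 9 and 43 of the 50. The split was not clean, because H1-2 and H2BC12, at 1218 and 1624 CPM per kb, had no longer transcript in this annotation, which may not be the one used for counting. Annotated lengths differ from the transcripts present, so these per-length levels are rough, and no test was made of the difference.

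Many H2A and H2B genes stand head to head, with their start sites a short distance apart and pointing away from each other. In the annotation 10 such H2A and H2B pairs had starts 170 to 251 bases apart, and 9 of them had counts for both genes. Per kb of coding length, the H2B partner was the higher in 6 pairs and the H2A partner in 3, and in 3 pairs the levels were over 10-fold apart. H2BC12 was at 1624 CPM per kb and its neighbor H2AC12 at 1.49, H2BC21 at 259 and H2AC20 at 0.877, and H2AC25 at 344.5 and H2BC26 at 3.54. In the other pairs the partners were closer, such as H2AC11 at 32.2 and H2BC11 at 88.2 CPM per kb.

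**Figure D3:**
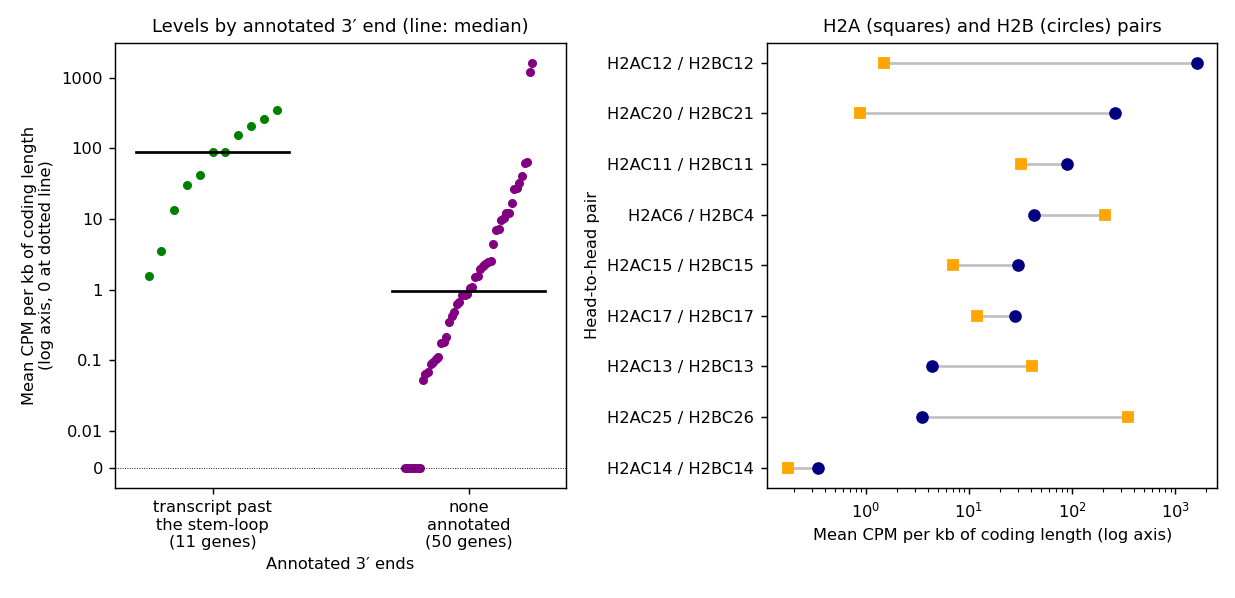
Left: mean CPM per kb of coding length (vertical log axis, genes at 0 on the dotted line) of the 11 histone genes with an annotated transcript past the stem-loop and the 50 without, with the medians (88.2 and 0.959) as lines. Right: the same measure (horizontal log axis) for 9 head-to-head pairs, with H2A as squares and H2B as circles, joined by a line, the widest gap being that of H2AC12 and H2BC12.

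MXD3 was then compared with EV by edgeR's quasi-likelihood test over all 15431 genes that passed the filter, with Benjamini-Hochberg adjustment. Of the 48 histone genes tested, 0 passed an adjusted p of 0.05, and among all genes 1 did (0.00648%). Most histone genes were nonetheless lower on average in the MXD3 libraries, with 35 of 48 log2 fold changes below 0 and 13 above. Their median was -0.14, where the median of all genes was 0.00 and 50.2% were above 0. Of the 19 abundant histone genes 12 were below 0 and 7 above. The replicate 2 pair of libraries differed more, with median log2 ratios of -0.1463 for the 48 genes and -0.1527 for the abundant 19. For the replicate 1 pair these ratios were only -0.0489 and -0.0197. At an unadjusted p under 0.05 there were 3 histone genes of 48, all lower, against 1.86% of all genes. Both MXD3 libraries were below both EV libraries for 15 of 48 histone genes and above both for 3 (14.8% and 16.2% of all genes). DESeq2 without a term for the replicate number likewise called 0 of 48 in this and both following comparisons, with 3, 0 and 1 histone genes at an unadjusted p under 0.05.

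The largest of these differences among abundant genes were in H2AC8 and H2AC25. They did not extend to the H2A family, whose 12 tested genes had a median of -0.07, with 5 above 0 and 7 below. The medians were -0.18 for H1, -0.14 for H2B, -0.14 for H3 and -0.19 for H4. H2AC8 was lower by a log2 fold change of -0.46 ± 0.16 (SE), a fold of 0.726, with adjusted p = 0.999 by edgeR. H2AC25 differed by -0.40 ± 0.15, a fold of 0.760, with adjusted p = 0.999 by edgeR. Both were lower in each MXD3 library than in the EV library of the same number, with log2 ratios of -0.36 and -0.58 for H2AC8 and -0.36 and -0.44 for H2AC25. These calls depended on whether the replicate number entered the fit as a block. With the replicate block DESeq2 called 2 of 48 histone genes (1.57% of all genes), H2AC25 with adjusted p = 0.00269 and H2AC8 with adjusted p = 0.0266. In both shares any gene to which DESeq2 gave no adjusted p counted as not called. With the same block edgeR called 0 of 48 (0.292% of all genes), with adjusted p = 0.0526 for H2AC25 and 0.101 for H2AC8, and 6 of 48 had an unadjusted p under 0.05 (13.9% of all genes). H4C11, at 0.668 and 0.611 CPM in EV, 0.202 and 0.249 in MXD3 and 0.547 and 0.572 in STIM1::MXD3, gave -1.50 ± 0.51 with adjusted p = 0.999 by edgeR, and it is one of the H4 genes whose reads can be shared with a copy. H1-2 stood at -0.29 ± 0.19 (95% interval -0.73 to 0.16) and H2BC12 at 0.03 ± 0.14 (-0.30 to 0.37). H2BC4 was at -0.24 ± 0.17 and H2BC5 at -0.11 ± 0.15, H2AC6 at 0.01 ± 0.13, and the highest value among abundant genes was that of H2AC11 at 0.27 ± 0.25, none past an unadjusted p of 0.05.

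For STIM1::MXD3 against EV the same test also called 0 of 48 histone genes (0.00648% of all genes, 1 gene), and 0 of 48 had an unadjusted p under 0.05 (0.953% of all genes, 147 genes). The median log2 fold change was -0.06, with 30 genes below 0 and 18 above, and the median of all genes was 0.01. Both fusion libraries were below both EV libraries for 9 of 48 histone genes and above both for 3 (10% and 12% of all genes). The 3 smallest p values belonged to H2BC26 (-0.75 ± 0.35), H4C15 (-1.39 ± 0.91) and H3C7 (0.95 ± 0.64), all scarce, with adjusted p = 1.0 by edgeR. H4C15 shared 100% of its windows with another histone gene, so its value is uncertain. It is also among the 9 genes below both EV libraries. H2BC26 was at 1.73 and 1.59 CPM in EV, 1.40 and 1.35 in MXD3 and 0.821 and 1.15 in STIM1::MXD3. Among the abundant genes H1-2 gave -0.19 ± 0.19, H2BC12 0.03 ± 0.14, H2AC25 -0.10 ± 0.15 and H2AC8 -0.10 ± 0.16. The 19 abundant genes ran from -0.25 (H2BC15) to 0.30 (H2AC11), 9 above 0 and 10 below. This comparison and the previous one use the same EV libraries, so their values are not independent.

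STIM1::MXD3 was compared directly with MXD3 to test the difference between the proteins. No histone gene of 48 was called (0.0% of all genes), and only H4C11 had an unadjusted p under 0.05 (1 of 48, against 1.01% of all genes), at 1.31 ± 0.51 with adjusted p = 1.0 by edgeR. The median log2 difference was 0.08, with 34 genes higher in STIM1::MXD3 and 14 lower, the median of all genes being 0.01. By replicate pair the histone median was 0.001 in replicate 1 and 0.14 in replicate 2. Of the 19 abundant genes 15 were higher and 4 lower, with medians of -0.03 in replicate 1 and 0.08 in replicate 2. Both fusion libraries were above both MXD3 libraries for 10 of 48 genes and below both for 5 (10.9% and 10.2% of all genes). The H2A family had the highest median, 0.27, with 11 of 12 tested genes above 0, against medians of 0.01 for 16 H2B genes, 0.08 for 7 H3 genes, 0.16 for 8 H4 genes and 0.04 for 5 H1 genes. H2AC8 was higher by 0.36 ± 0.16 (95% interval -0.02 to 0.74) and H2AC25 by 0.30 ± 0.15 (-0.07 to 0.66), both with adjusted p = 1.0 by edgeR. H1-2 at 0.09 ± 0.19 and H2BC12 at 0.00 ± 0.14 did not differ beyond the spread between libraries. H3C6, a scarce H3 gene at 0.778 CPM on average, was at 0.99 ± 0.50 with adjusted p = 1.0 by edgeR. With 2 libraries a group an exact permutation test of a single gene cannot go below 0.333, and adjusted p values near 1 do not show that levels were equal.

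**Figure D4:**
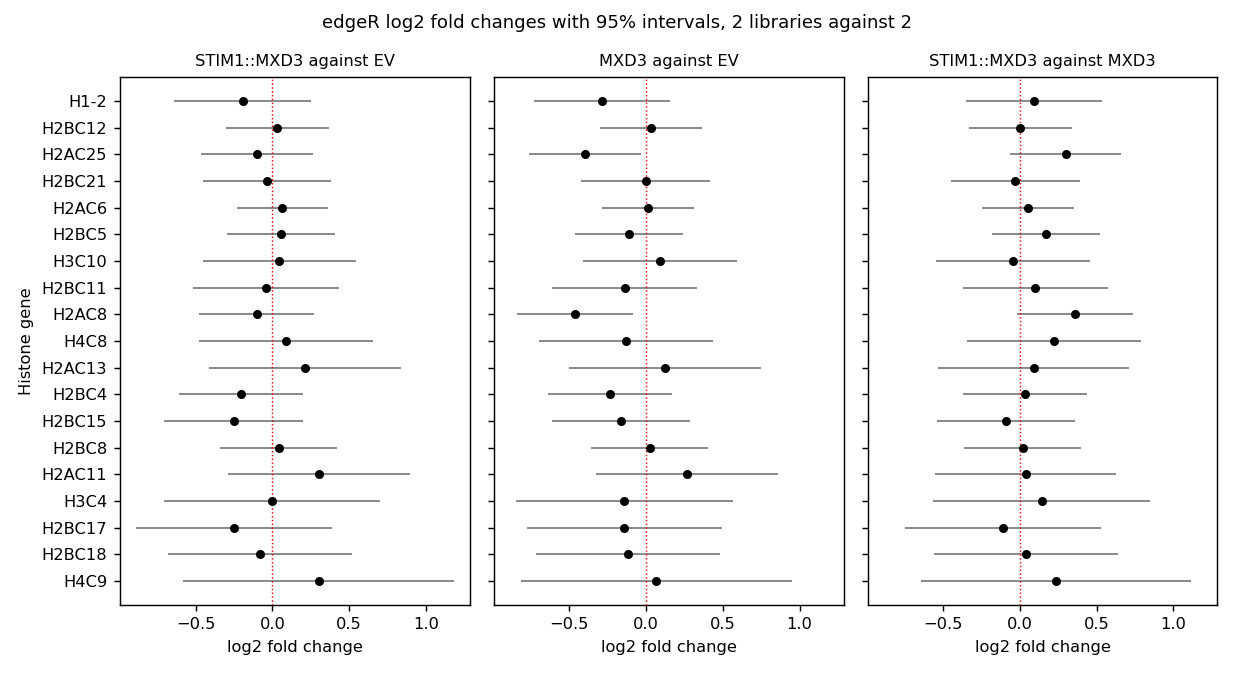
edgeR log2 fold changes (horizontal axes) with 95% intervals of the 19 abundant histone genes in the 3 comparisons of 2 libraries against 2, with 0 as a dotted line. All intervals cross 0 in the comparisons that involve STIM1::MXD3, and in MXD3 against EV those of H2AC25 and H2AC8 lie below 0, though neither gene passed edgeR's adjusted test.

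Many genes differed by replicate number, some histone genes among them, in a comparison of 3 libraries against 3. In a fit with plasmid group and replicate number as terms, 9 of 48 histone genes passed an adjusted p of 0.05 between replicate 2 and replicate 1 (18.8%), where 29.2% of all genes did. All 9 were among the 19 abundant genes (47.4%), and of the 10250 genes at 5 CPM or more 38.2% passed. There were 7 that fell in replicate 2 (16.1% of all genes fell) and 2 that rose (13.1% rose). H1-2 fell, with a log2 coefficient of -0.30 ± 0.07 (adjusted p = 0.00578 by edgeR), as did H3C10 at -0.37 ± 0.08 (adjusted p = 0.00350), H3C4 at -0.53 ± 0.13 (adjusted p = 0.00532) and H2BC21 at -0.27 ± 0.07 (adjusted p = 0.0125). H2AC25, H2BC11 and H2BC17 also fell, at -0.23, -0.29 and -0.39. H4C9 rose by 0.59 ± 0.18 (adjusted p = 0.0185) and H2AC13, which shares sequence with a copy, by 0.37 ± 0.13 (adjusted p = 0.0438). Apart from H3C10, which genes passed depended on the libraries kept. A fit without 1 library takes its whole plasmid group out of the replicate coefficient, because the library that remains has no partner.

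By family, 7 of 8 H4 genes tested had a positive coefficient for replicate 2 (median 0.32), of which H4C9 alone passed, while 4 of 5 H1 genes and 10 of 16 H2B genes had a negative one (medians -0.30 and -0.17). H2A genes were even at 6 and 6 and H3 genes stood at 4 and 3, where 50.7% of all genes were positive, and no difference between families was tested. Among the 19 abundant genes, 12 were lower in replicate 2 in all 3 groups and 5 were higher in all 3 (H2AC6, H2AC11, H2AC13, H4C8 and H4C9), where of 10250 genes at 5 CPM or more 38.6% were lower in all 3 and 28.0% higher. The 11 genes with an annotated transcript past the stem-loop had a median of -0.21, with 8 lower and 3 higher, and the 33 tested genes without one a median of 0.06, with 13 lower and 20 higher. These classes also differed in level, with 9 of the 11 and 9 of the 33 at 5 CPM or more. The part of level in their medians was not tested. The size of the difference varied between groups, since H4C8 was higher in replicate 2 by 0.10 in EV, 0.14 in MXD3 and 0.71 in STIM1::MXD3 on the log2 scale, and the H1-2 ratios were -0.15, -0.29 and -0.46. Erythroid markers moved with the replicate number as well, as 10 of 16 fell in replicate 2 and 0 rose by the same test. The mitochondrial share of counts had no common direction, at 2.73 and 1.54% in the EV libraries, 1.45 and 3.73% in MXD3 and 1.56 and 2.90% in STIM1::MXD3. Their part in the histone values was not tested.

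**Figure D5:**
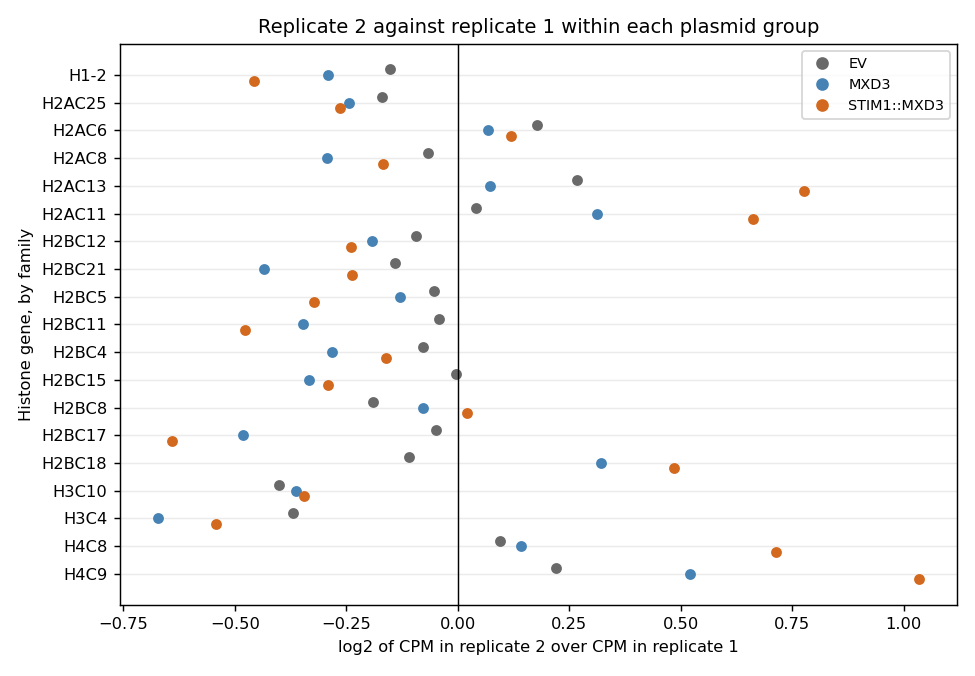
log2 ratio of CPM in replicate 2 to replicate 1 (horizontal axis) for the 19 abundant histone genes, grouped by family from H1 to H4, with 1 point per plasmid group. The points of 12 genes lie left of 0 in all 3 groups and those of H2AC6, H2AC11, H2AC13, H4C8 and H4C9 lie right of it, with STIM1::MXD3 giving the largest ratio for H4C8 (0.71) and H4C9 (1.03).

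Genes that make, bind or accompany the histone mRNAs were read from fixed lists. Transcription factors and coactivators of histone genes gave 0 of 5 calls in each plasmid comparison, with 1 of 5 at an unadjusted p under 0.05 in MXD3 against EV, CASP8AP2. NPAT, the coactivator of histone gene clusters in S phase, was at 27.2 and 30.5 CPM in EV, 34.5 and 39.5 in MXD3 and 28.8 and 38.3 in STIM1::MXD3, or 0.36 ± 0.18 in MXD3 against EV. CASP8AP2, which acts with NPAT at histone locus bodies, was at 0.51 ± 0.17 in MXD3 against EV with adjusted p = 0.999 by edgeR, on 29.6 and 32.8 CPM in EV and 45.3 and 43.4 in MXD3. None of 18 genes of histone 3′ end processing was called. SLBP, the stem-loop binding protein, was at 116 and 127 CPM in EV, 144 and 135 in MXD3 and 132 and 129.9 in STIM1::MXD3, with log2 fold changes of 0.20 ± 0.12 and 0.11 ± 0.12 against EV. CSTF3, a cleavage and polyadenylation subunit, gave 0.57 ± 0.24 in STIM1::MXD3 against EV and 0.52 ± 0.24 in MXD3 against EV. No call was made among 7 genes of histone mRNA translation and decay or 22 histone chaperones, whose medians against EV were -0.01 and 0.10 for STIM1::MXD3 and 0.03 and 0.12 for MXD3.

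Replication-independent histone genes, which are polyadenylated as a rule, also gave 0 calls among the 9 tested of 12. H3-3B was at 505 and 467 CPM in EV, 476 and 377 in MXD3 and 536 and 402 in STIM1::MXD3, and H3-3A at 389.7 and 353, 415 and 349, and 429.8 and 363 CPM. H2AX, the H2A form marked at DNA breaks, was at 174 and 188 CPM in EV, 220.0 and 183 in MXD3 and 189 and 204 in STIM1::MXD3. These genes summed to 1960 to 2210 CPM, close to the sum over all 69 replication-dependent genes. Genes of S phase, among them SLBP again, lay mostly above 0. There were 17 of 18 above 0 in STIM1::MXD3 against EV (median 0.13) and 16 of 18 in MXD3 against EV (median 0.19). In either, 0 were called and 0 had an unadjusted p under 0.05. Of all genes 52.1% and 50.2% were above 0 in the same order. Of the 48 histone genes 18 and 13 were above 0, and of the 19 abundant ones 9 and 7. PCNA, the replication clamp, was at 69.5 and 91.5 CPM in EV, 97.4 and 99.5 in MXD3 and 100.4 and 103 in STIM1::MXD3, or 0.34 ± 0.15 for the fusion against EV.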

How the data were processed

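RNA-seq of poly A RNA from 6 K562 libraries was analysed from the 6 deposited files, which hold whole-number read counts per NCBI Gene ID that the authors made without normalization. The submitters' processing notes name HISAT2 2.2.1, featureCounts 2.0.1 and hg19. The annotation, strand setting and treatment of multi-mapping reads are not given in the sources used here. Low counts were even in 59.8 to 67.3% of cases, so counts divided by 2 were tried as an alternative. Gene IDs matched a current symbol for 92.2% of identifiers.

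Counts were filtered with filterByExpr, scaled by TMM factors and tested over all 15431 genes kept with edgeR 4.0.16 in R 4.3.3 (quasi-likelihood test, plasmid group as the only term, Benjamini-Hochberg adjustment, threshold 0.05). The replicate coefficient came from a fit with the replicate number added. SE is the log2 fold change divided by the root of the F statistic, and 95% intervals use the degrees of freedom of that test. The test was checked on simulated data with 200 changed genes and recovered most of the largest changes. Those changes exceeded the ones seen in the abundant histone genes, and no difference between replicate numbers was simulated. The check therefore does not show whether smaller differences could be found. DESeq2 1.42.0 served for alternatives. Named genes were those with a mean of at least 5 CPM (at most 20), the 3 smallest p values of each plasmid comparison, every call, and up to 3 genes of each accompanying list with SLBP, NPAT, H2AX, H3-3A and H3-3B; a further gene that this rule names is not reported here. Gene members and lists were chosen with earlier results of these data known. Sequences came from GRCh37 with GENCODE models and from RefSeq promoters of GRCh38.p14, and shared windows were counted among the placed histone genes alone.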

Additional observations from a re-analysis of the deposited data

How the results depend on the processing

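Call counts and medians were recomputed with DESeq2 size factors, no filter on low counts, halved counts, the 4 libraries of the groups compared, DESeq2, a replicate block, and each library left out in turn. Called histone genes stayed at 0 in the 3 plasmid comparisons under all of these but DESeq2 with the replicate block, which called 2 in MXD3 against EV, H2AC25 (adjusted p = 0.00269) and H2AC8 (adjusted p = 0.0266), where 1.57% of all genes were called. Genes to which DESeq2 gave no adjusted p counted as not called. For the fusion against EV with the block these included every histone gene with a mean CPM below that of H4C8. In edgeR's fit with the replicate block the adjusted p of H2AC25 was 0.0526 and that of H2AC8 0.101, and the calls among all genes were 45 in MXD3 against EV, 3 for the fusion against EV and 1 for the fusion against MXD3. The labels do not say what the replicate number marks. Same-numbered libraries deviated together, with correlations of 0.270 to 0.450 over all genes tested and 0.621 to 0.792 over the 10250 genes at 5 CPM or more. The replicate block took the median log2 fold change of the histone genes from -0.14 to -0.17, from -0.06 to -0.08 and from 0.08 to 0.07 in that order. With each library left out the medians were -0.20 to -0.11, -0.11 to -0.01 and 0.08 to 0.14, and the called genes between replicate numbers were 4 to 13, with a median of -0.12 to 0.01. No filter gave 12 calls between replicate numbers, on 59 histone genes. Where a group was left with 1 library, that library was assumed to vary like the others. The summed histone CPM of a library moved by less than the spread between replicates under other scalings. The cause of these shifts was not tested. With 2 libraries a group, differences of the size of the SE of abundant genes (median 0.19 on the log2 scale) could not be detected.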
